A study of Mus musculus with 3 samples.

Results

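Pancreatic polypeptide cells, also called PP or gamma cells, were studied in a single-cell RNA dataset of mouse islets. They were chosen by their own RNA: a barcode was taken when it held at least 500 genes and at most 20% mitochondrial UMIs (unique molecular identifiers, 1 per captured RNA molecule). Ppy had to take at least 1% of its UMIs and more than Gcg and more than Sst, and Ins1 plus Ins2 less than 10%. Barcodes led by the ferritin pseudogene Ftl1-ps1 were left out, that is, those with at least 5 UMIs of Ftl1 and Ftl1-ps1 of which at least 50% were Ftl1-ps1. This gave 370 PP cells among 11314 cells within the quality limits and 24590 barcodes in all: 130 in the control, 161 in the S961 and 79 in the recovered library.

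PP cells are a minor endocrine cell type of the islet and are most frequent in the part of the pancreas next to the duodenum. They secrete pancreatic polypeptide, the product of Ppy, after a meal under vagal control, and the hormone acts mainly through the receptor encoded by Npy4r to lower appetite and exocrine secretion. Peptide YY, the product of Pyy, belongs to the same peptide family and is also made by islet cells.

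All mice were male C57Bl6/J retired breeders, 7 to 8 months old, that had carried pumps for 2 weeks. Pumps held no S961 in the control group, and S961, a peptide that blocks the insulin receptor, at a labelled 20 nM per week in the S961 group; in the recovered group the pumps had been taken out again. Islets were kept in culture overnight, dissociated with TrypLE and loaded on the 10x Genomics 3′ platform, with 1 library per group. How many mice were pooled in a library and how long the recovery lasted are not stated in the labels, so a library is the only unit of replication and no group has a second one.

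Ppy and Pyy lie side by side on the minus strand of mouse chromosome 11. On GRCm38, Ppy (ENSMUSG00000017316) spans chr11:102099930-102101319 and Pyy (ENSMUSG00000017311) chr11:102106676-102107832, with 5356 bases between them. Their promoters are shown because Ppy defines the cells and Pyy, its neighbour, was highest in them. Each line gives the 250 bases before the start site, 5′ to 3′ on the strand of the gene, from RefSeq on GRCm38.p6, with the capitals marking the letters TATAA.
Ppy promoter, chr11:102101320-102101569, minus strand: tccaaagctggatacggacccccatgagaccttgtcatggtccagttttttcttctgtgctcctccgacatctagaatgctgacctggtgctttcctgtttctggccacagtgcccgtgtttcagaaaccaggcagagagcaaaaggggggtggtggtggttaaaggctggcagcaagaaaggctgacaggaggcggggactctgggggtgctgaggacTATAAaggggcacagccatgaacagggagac
Pyy promoter, chr11:102107833-102108082, minus strand: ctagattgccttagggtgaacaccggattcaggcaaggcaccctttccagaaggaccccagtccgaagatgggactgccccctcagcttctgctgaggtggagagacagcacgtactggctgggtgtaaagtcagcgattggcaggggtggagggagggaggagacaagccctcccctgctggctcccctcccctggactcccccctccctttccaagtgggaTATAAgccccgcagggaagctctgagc
The first T of TATAA lay 31 bases before the start site in Ppy and 27 in Pyy. A second RefSeq start site of Pyy, chr11:102107776, whose promoter is not shown, had the same TATAA 83 bases before it. Among 32851 promoters of this length, 22.8% held TATAA on either strand, and 2.97% held it on the strand of the gene with its first base 25 to 35 bases before the start. The letters TAATTA, searched on both strands, were in neither of these windows and in 4.84% of all promoters. These matches describe the letters only.

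The libraries held 38265969 (control), 47651767 (S961) and 40102058 (recovered) UMIs, and the depth of a cell differed between them: PP cells had medians of 4676.5, 10491 and 8036 UMIs. Scrublet called 3 of 4270 control cells doublets (0.0703%), too few to have worked there, against 77 of 3507 and 24 of 3537, and 1, 2 and 1 of these calls were PP cells, which were kept. Between libraries 11 to 29 barcodes were shared, none of them a PP cell. Markers of macrophage, T or NK, B, stellate, endothelial, Schwann and red blood cells had a median of 0 in PP cells, and Ghrl, the epsilon-cell hormone, had no UMI. Of 7 ductal markers 2 were at 0 in each library (Sox9 and Cftr, in recovered Krt19 and Cftr). Their sums per 1000000 UMIs of PP cells were 3025, 4548 and 2274 with medians of 0.221%, 0.323% and 0.172%, and they reached 1% in 1, 12 and 1 cells. This list holds Spp1, which was at 3311, 5415 and 2511 CPM (a unit defined below) in PP cells and at 3899, 5541 and 2285 CPM in alpha cells. Of 11 acinar markers 10 were detected, and they summed to 151 (control), 12241 (S961) and 397 (recovered) per 1000000 of all UMIs of PP cells. The S961 sum came largely from 6 of 161 cells with at least 1% acinar UMIs, up to 32.7% in 1 cell. Counts below are therefore also given without the 8 S961 PP cells in which acinar, endothelial, stellate, immune, Schwann and red blood cell markers together reached 0.5%, called other-lineage markers below (ductal markers not counted), an alternative added after the data had been seen.

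The chosen cells were dominated by their hormone. Ppy, which the rule used, took a median of 20.4% of the UMIs of a PP cell in control (lowest 1.06%, highest 44.7%), 24.4% in S961 (1.03% to 52.7%) and 24.8% in recovered (1.89% to 54.7%). The ranges overlapped almost entirely. Ppy reached 5% in 338 of the 370 cells and 20% in 219. The limit of 1% cut through few cells. Just inside it, between 1 and 1.5%, lay 4 cells with medians of 1.16% Ppy, 2.59% Pyy and 3.82% insulin RNA, and just outside, between 0.67 and 1%, lay 2 cells with medians of 0.895%, 1.02% and 5.56%.

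Pyy was not part of the rule, and every PP cell held it. Its median share was 8.23%, 8.21% and 9.91% in PP cells of the control, S961 and recovered libraries. Levels of other genes are given below in CPM, the UMIs per 1000000 of those of the genes outside the cell rule, since Ppy alone would otherwise shift the scale. On that scale Pyy was at 134189, 129712 and 149147 CPM in PP cells of the control, S961 and recovered libraries. In alpha cells, the glucagon-producing cells taken here as those with Gcg at 2% or more of UMIs and above Ppy (876 cells), it was at 34217, 45579 and 36332 CPM. In delta cells, led by the somatostatin gene Sst (814 cells), it was at 83729, 96028 and 86579 CPM, and in 6153 insulin-rich cells at 446 to 497 CPM. PP cells were thus the highest in each library, and no PP value overlapped another class. Pyy was higher than in alpha cells by 1.94 on the log2 scale (SE 0.08, edgeR adjusted p = 1.06e-11) and than in delta cells by 0.64 (edgeR adjusted p = 8.7e-10). For comparison, 7.29% of 10838 genes tested against delta cells were higher in PP cells and 9.14% lower by this test. Both comparisons share the PP sums, and the one with delta cells was added after the data had been seen. In 44 of 370 PP cells (19 control, 15 S961, 10 recovered) Pyy UMIs outnumbered Ppy UMIs.

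Some PP cells also held a second hormone. Gcg reached 1% of UMIs in 37 PP cells and Sst in 31, and 67 of 370 (18.1%) had 1 or both: 22 of 130 in control, 33 of 161 in S961 and 12 of 79 in recovered. These shares overlapped within their exact 95% intervals, which cover counting error only (10.9 to 24.5%, 14.5 to 27.6% and 8.10 to 25.03%). Ppy in turn was at a median of 0.969%, 1.09% and 0.961% in delta cells, and at 0.084%, 0.147% and 0.072% in alpha cells. It still reached 1% of UMIs in 194 of 876 alpha cells (22.1%). These were 45 of 248 in control, 104 of 363 in S961 and 45 of 265 in recovered. A second hormone at this level was thus not particular to PP cells. Whether a barcode with RNA of more than 1 hormone held a single cell was not tested. Insulin genes took a median of 2.43%, 0.108% and 1.09% of UMIs in PP cells of the control, S961 and recovered libraries, and 2.51%, 0.119% and 1.28% in alpha cells.

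**Figure D1:**
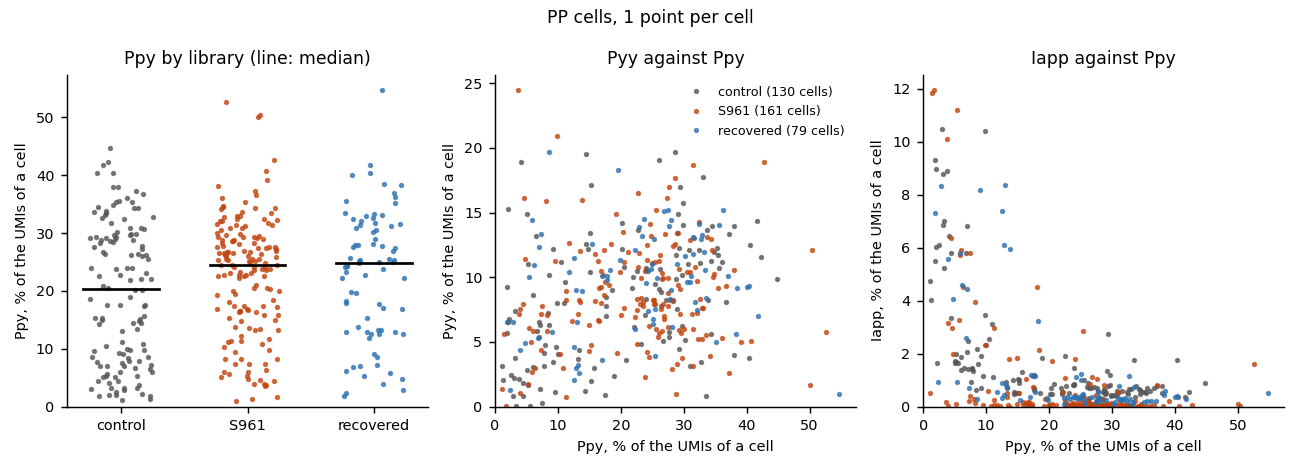
Hormone RNA in PP cells, 1 point per cell, in % of the UMIs of the cell. The left panel plots Ppy by library with the median as a line (20.4%, 24.4% and 24.8%), and the other panels plot Pyy and Iapp against Ppy, where Iapp is high mainly among cells with little Ppy.

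PP cells differed among themselves along the Ppy axis. Over 354 PP cells thinned to 2000 UMIs (16 shallower cells, 15 of them control, were left out), the 5 genes whose counts followed Ppy most closely were Spp1, Pyy, Ctsz, Tspan8 and Cst3. Spp1, which encodes the secreted phosphoprotein osteopontin, had a Spearman coefficient of 0.38 (0.58 in control, 0.21 in S961, 0.40 in recovered). The next were weak, at 0.22 for Pyy and for the cathepsin gene Ctsz, 0.20 for Tspan8 and 0.16 for Cst3. In control, S961 and recovered, Pyy was at 0.40, 0.07 and 0.14, Ctsz at 0.22, 0.23 and 0.18, Tspan8 at 0.31, 0.13 and 0.17 and Cst3 at 0.06, 0.16 and 0.28. The lowest coefficients were those of the granin Chga (−0.48), of Iapp, which encodes amylin (−0.46), and of Igfbp7 (−0.40), which is in no list and was picked for this value. Cells of a library share their depth and free RNA, and within a fixed 2000 UMIs a higher Ppy count leaves fewer UMIs for other genes, so these values are a description.

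Levels scaled without Ppy showed the same ordering for these genes. Spp1 was at 586 CPM in the 17 control PP cells with 1 to 5% Ppy, at 1933 in the 46 cells with 5 to 20% and at 4568 in the 67 cells with 20% or more. In S961 these levels were 1014, 5195 and 6056 CPM (10, 47 and 104 cells), and in recovered 79.0, 1462 and 3322 CPM (5, 26 and 48 cells). Spp1 thus stepped up with Ppy in each library, though the lowest recovered value rested on 2 UMIs.
Iapp ran the other way, from 76075 to 24844 to 11550 CPM in control, from 57484 to 17347 to 3521 in S961 and from 73901 to 42441 to 5610 in recovered. Chga stepped down as well, from 13485 to 1818 CPM between the outer classes in control, from 11050 to 1584 in S961 and from 23000 to 2292 in recovered. Rbp4, a retinol carrier that is abundant in delta cells, lay at 3426 to 5938 CPM in the cells with 1 to 5% Ppy and at 313 to 500 CPM in those with 20% or more.
Cells with Gcg or Sst at 1% or more followed the same axis: they were 14 of the 32 cells with 1 to 5% Ppy, 42 of the 119 with 5 to 20% and 11 of the 219 with 20% or more. Their part in the levels of Spp1, Iapp, Chga and Rbp4 was not tested. With the Ppy minimum at 5%, which leaves these 32 cells out, 747 genes were higher and 826 lower than in alpha cells, close to the counts for all PP cells below.

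**Figure D2:**
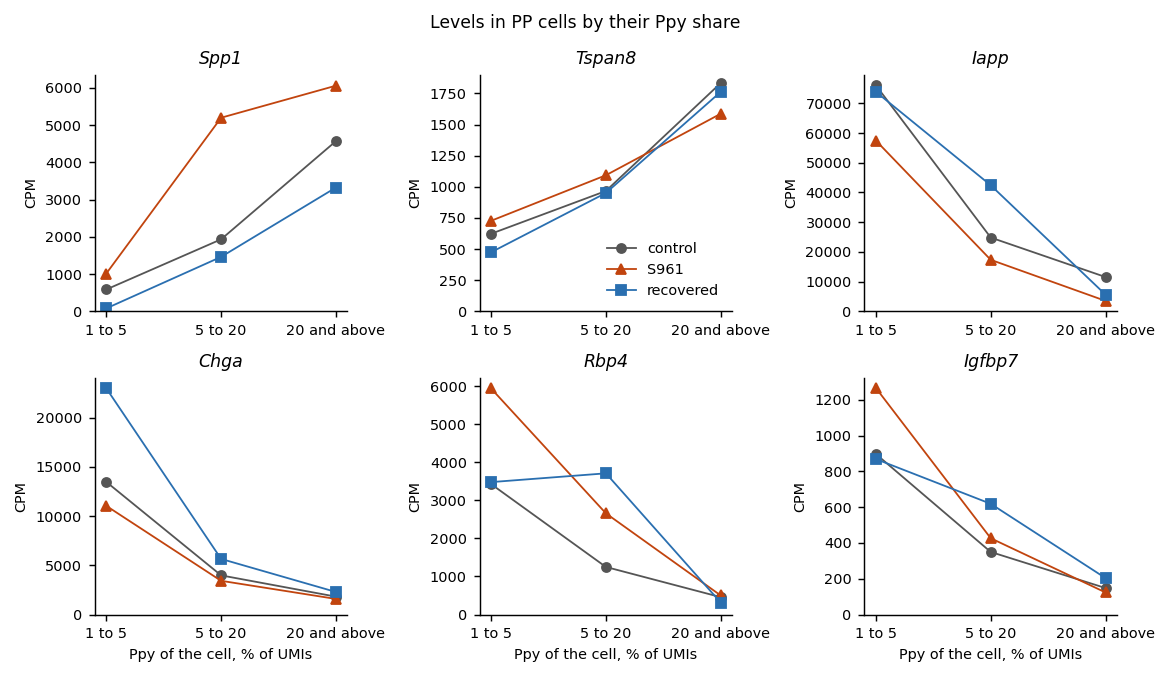
Levels in CPM (UMIs per 1000000 of those of the genes outside the cell rule) of 6 genes in PP cells split by their Ppy share (1 to 5%, 5 to 20%, 20% and above), with 1 line per library and no replicates. In all 3 libraries Spp1 and Tspan8 are higher in the cells with 20% Ppy or more than in those with 1 to 5%, and Iapp, Chga, Rbp4 and Igfbp7 are lower.

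PP cells were next compared with alpha cells of the same libraries, the question being which genes other than the hormones mark them. UMIs were summed per class and library and tested with edgeR's quasi-likelihood test, with the library as a block and Benjamini-Hochberg adjustment over 10696 genes. The 20 genes of the cell rule were not tested. The p-values measure only how far the difference between PP and alpha cells varied over these 3 libraries. The libraries come from 3 different groups, so the test asks for a difference common to them. At an adjusted p under 0.05, 808 genes were higher in PP cells (7.55% of those tested) and 833 lower (7.79%), and 1535 of these 1641 had the same sign in all 3 libraries. DESeq2 called 174 higher (1.63%) and 195 lower (1.82%), 3.45% in all, and 368 of the 1641 were called by both in the same direction. With total counts in place of TMM scaling, 587 were higher and 1299 lower, so that 31.1% of the calls were higher against 49.2%; the median log2 ratio of all genes was then −0.11 against −0.0021. The CPM in the text carry no TMM scaling and count Pyy in their total, whereas the edgeR log2 differences are TMM-scaled. Small gaps in CPM between classes therefore partly reflect this scale. Without the S961 library 408 were higher and 460 lower. Without cells that held other-lineage markers, 802 were higher and 848 lower. Mitochondrial shares were close in the classes, with medians of 4.77%, 4.51% and 5.18% in PP and 5.53%, 5.37% and 5.82% in alpha cells.

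The 15 named genes with the highest fold change over alpha cells included a tetraspanin, a muscarinic receptor and a kinase. Tspan8, a tetraspanin of the cell surface (chr10:115816832-115849893), was at 1433, 1367 and 1416 CPM in PP cells of the control, S961 and recovered libraries and at 142, 144 and 100.96 CPM in alpha cells. The groups did not overlap, and the log2 difference was 3.54 (SE 0.10, edgeR adjusted p = 1.98e-20). Delta cells held it at 717 to 841 CPM, below PP cells by 0.84 (edgeR adjusted p = 6.17e-13). Limch1, which codes for an actin-associated protein (chr5:66745827-67057158), was at 82.5, 79.0 and 76.3 CPM against 5.53, 2.02 and 5.46 CPM in alpha cells, 4.56 higher on the log2 scale (SE 0.28, edgeR adjusted p = 6.49e-13). Its delta values were 5.26 to 11.02 CPM, and insulin-rich cells lay between at 37.4 to 46.5 CPM. Chrm3, the muscarinic receptor through which acetylcholine acts on islet cells (chr13:9875486-10360847), was at 33.0, 31.1 and 35.8 CPM in PP cells. In alpha cells it was at 2.77, 4.43 and 2.73 CPM, so PP cells were higher by 3.21 on the log2 scale (SE 0.35, edgeR adjusted p = 7.6e-08). PP cells were again the highest class, since delta cells held 3.51 to 6.61 CPM and insulin-rich cells 17.3 to 25.1 CPM. In cells thinned to 2000 UMIs, a Chrm3 UMI was found in 10 of 115, 12 of 161 and 5 of 78 PP cells but in 1 of 233, 0 of 356 (which allows up to 1.03% by the exact interval) and 1 of 255 alpha cells. Median unthinned depths were 4676.5, 10491 and 8036 UMIs for PP and 4396.5, 9991 and 5952 for alpha cells.

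Klf2, a zinc-finger transcription factor, was at 23.6, 25.5 and 28.6 CPM in PP cells and at 1.38 to 4.03 CPM in alpha cells (log2 difference 3.18, SE 0.40, edgeR adjusted p = 9.91e-07). It lay at 5.35 CPM or less in delta and insulin-rich cells. Lrrk1, a leucine-rich repeat kinase, was at 18.9, 19.9 and 33.4 CPM against 0, 2.82 and 2.73 CPM in alpha cells (3.38, edgeR adjusted p = 2.75e-06) and 2.05 CPM or less in the other classes. Both genes were thus low in alpha, delta and insulin-rich cells, and cell types other than these were not compared. Hadh, a mitochondrial enzyme of fatty acid oxidation, was at 238, 201 and 269 CPM against 18.9 to 60.9 CPM in alpha cells (3.00, edgeR adjusted p = 5.81e-06), but delta cells (296 to 359 CPM) and insulin-rich cells (425 to 596 CPM) held more. For Hadh it was therefore the alpha cells that stood apart.
The other genes chosen in the same way were Pigr (4.79), Chac1 (3.46), Eci3 (3.38), Ntm (3.37), Kctd8 (3.28), Ocln (3.13) and Slc4a10 (2.95), with these log2 differences over alpha cells. Pigr, the receptor that carries immunoglobulins across epithelia, was at 23.6, 35.1 and 11.9 CPM and as high in insulin-rich cells (15.8 to 36.4 CPM). Kctd8, an auxiliary subunit of GABA-B receptors, and Ntm, an adhesion protein, were also abundant in delta cells (55.1 to 68.4 and 27.2 to 40.5 CPM). Kctd8 lost its call without the library block. Pnliprp2 (4.51) and Pla2g1b (4.04) completed the 15, but both are genes of acinar secretion: 108 of 111 and 107 of 117 of their PP UMIs came from the S961 library, the one with acinar RNA in PP cells, and both lost their call without the library block. The part of acinar RNA in these 2 values was not tested.

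The named genes most reduced in PP cells included Irx1, Ttr and Slc38a5 of the alpha identity list. Irx1, a homeobox gene of alpha cells, was at 14.1, 9.57 and 9.54 CPM against 144, 131 and 127 CPM (−3.54, SE 0.21, edgeR adjusted p = 1.96e-13). Ttr, the thyroid hormone carrier transthyretin, was at 733, 771 and 763 CPM against 17267, 11156 and 15511 CPM (−4.13, SE 0.15, edgeR adjusted p = 5.75e-06). The remaining ones included the amino acid transporter Slc38a5 (−4.37), the oxytocin receptor Oxtr (−3.53), the mitochondrial protein Higd1a (−3.30), the adhesion protein Nrcam (−3.28), Upk3a (−3.26) and the thymosin Tmsb15b2 (−3.76), a family with near-identical copies. Gfra3, a receptor subunit for neurotrophic factors, had 1 UMI in all PP cells against 30.4, 43.5 and 44.6 CPM in alpha cells. Egflam and Mfap2 had 2 UMIs each in PP cells and 30.6 to 37.3 and 19.4 to 28.2 CPM in alpha cells. Mfap2 was not called by DESeq2 (DESeq2 adjusted p = 0.117).

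**Figure D3:**
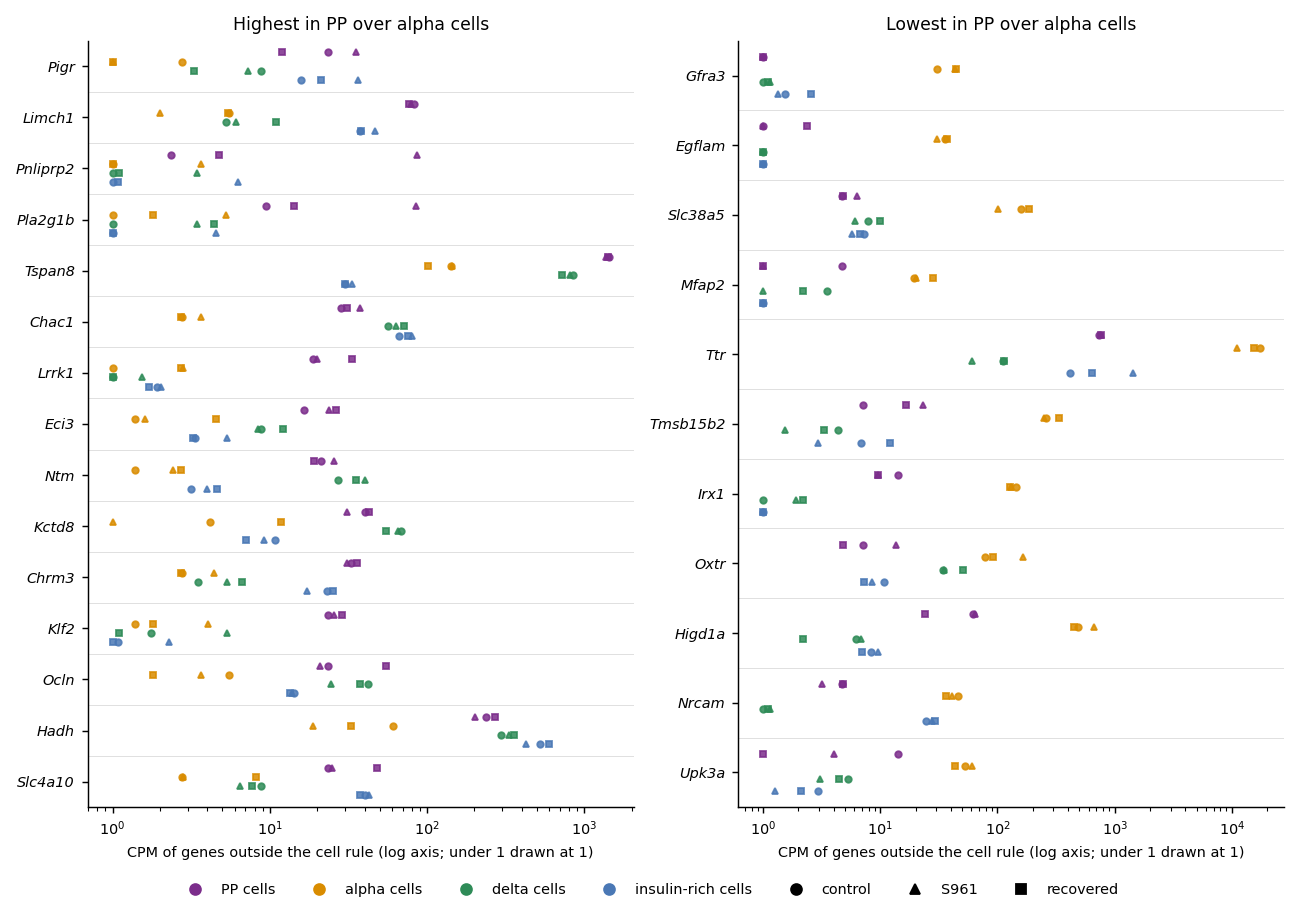
Levels in CPM on a log axis (values under 1 drawn at 1) of the 15 genes with the highest and the named genes with the lowest fold change of PP over alpha cells, with the cell class as colour and the library as marker. For Tspan8 the 3 PP points lie between 1367 and 1433 CPM and the alpha points at 144 CPM or less, while Pnliprp2 and Pla2g1b are high in PP cells of the S961 library only.

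Most alpha identity genes were lower in PP cells. Of 14 alpha identity genes, 13 had at least 30 UMIs over the 6 sums; none was higher in PP cells, 10 were lower, and the median log2 difference was −2.82 against −0.0021 over all genes. Besides those above, Irx2 (−2.50), Pou3f4 (−2.84) and the arginine transporter Slc7a2 (−2.61) were lower. Gc, the vitamin D carrier (396, 357 and 372 CPM against 472, 421 and 395), and the chromatin remodeller Smarca1 (148, 150 and 162 against 142, 138 and 181) were among those that did not pass the test.

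Of 14 beta identity genes 12 were measured, 4 higher, 1 lower and 7 neither (median 0.64). Nkx6-1 and Pdx1, transcription factors that maintain beta cells, were among the higher ones, and Pdx1 is also a gene of delta cells. Nkx6-1 (chr5:101658139-101664996) was at 153, 118 and 134 CPM in PP cells, 51.2, 28.2 and 24.6 CPM in alpha cells and 17.6 to 37.5 CPM in delta cells. PP cells did not overlap either class (2.13 over alpha, SE 0.16, edgeR adjusted p = 6.46e-11; 2.38 over delta, edgeR adjusted p = 7.05e-20). Pdx1 (chr5:147269959-147275848) was at 66.0, 40.7 and 45.3 CPM against 12.4, 8.06 and 13.6 CPM in alpha cells (2.28, SE 0.25, edgeR adjusted p = 1.02e-07) but 123 to 138 CPM in delta cells.
Insulin RNA was measured beside them. Relative to insulin-rich cells of the same library and per 1000000 of all UMIs, PP cells held Ins2 at 9.0%, 1.09% and 5.66% of the level and Mafa, a transcription factor of mature beta cells, at 7.63%, 0.874% and 8.82%. For Nkx6-1 these values were 53.8%, 50.8% and 40.3%, and for Pdx1 40.3%, 39.4% and 27.9%. Both lay above the Ins2 and Mafa values in every library. How wide the gap was depended on the gene compared, since the prolactin receptor gene Prlr was at 23.7%, 6.0% and 7.68% and Iapp at 17.4%, 9.34% and 17.1%. The part of insulin-rich cells' RNA in the Nkx6-1 and Pdx1 levels was not tested. In alpha cells Nkx6-1 was at 17.8%, 11.9% and 7.49% and Ins2 at 8.40%, 1.11% and 3.86%. Iapp (0.93, edgeR adjusted p = 6.44e-11) and the gap junction gene Gjd2 (0.89, edgeR adjusted p = 0.0146) were also higher than in alpha cells, but both calls ended with the Ppy minimum at 5% (Iapp 0.50, edgeR adjusted p = 0.257; Gjd2 0.65, edgeR adjusted p = 0.124) and without cells that held a second hormone (edgeR adjusted p = 0.313 and 0.105). In PP cells with 20% Ppy or more, Iapp was at 11550, 3521 and 5610 CPM, below the 15671, 6471 and 10800 CPM of alpha cells. Nkx6-1 and Pdx1 kept their calls in both settings. Slc30a8, the zinc transporter of hormone granules, was lower, at 106, 67.8 and 107 CPM against 801, 716 and 904 CPM (−3.06, SE 0.11, edgeR adjusted p = 3.66e-18).

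Of 8 delta identity genes 5 were measured: Hhex, a repressor that specifies delta cells, was higher than in alpha cells (14.1, 22.3 and 26.2 against 5.53 to 9.10 CPM; 1.75, edgeR adjusted p = 0.000475) but far below its delta level of 262 to 319 CPM. In the 219 PP cells with 20% Ppy or more, Hhex had 2, 1 and 0 UMIs (8.01, 1.31 and 0 CPM). Without cells that held a second hormone at 1% or more, Hhex had too few UMIs to be tested, and of 4 delta identity genes measured none was higher and 3 were lower (median −1.08). Pcp4l1 had no UMI in PP cells and 9.99 CPM in pooled alpha cells, so it was at least 6.98-fold lower with a floor of 3 UMIs over the PP group. Of 21 pan-endocrine transcription factors 18 were measured, 2 higher (Mlxipl at 1.44 and Neurog3 at 1.87, the latter without a UMI in recovered PP cells and with 1 UMI in all PP cells at 20% Ppy or more), 2 lower (Neurod1 at −0.99 and Rfx6 at −0.98) and 14 neither; the median was 0.04. Pax6 was at 292, 263 and 343 CPM in PP and 326, 302 and 350 CPM in alpha cells, and Isl1 at 372, 381 and 424 against 389, 382 and 426 CPM.

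**Figure D4:**
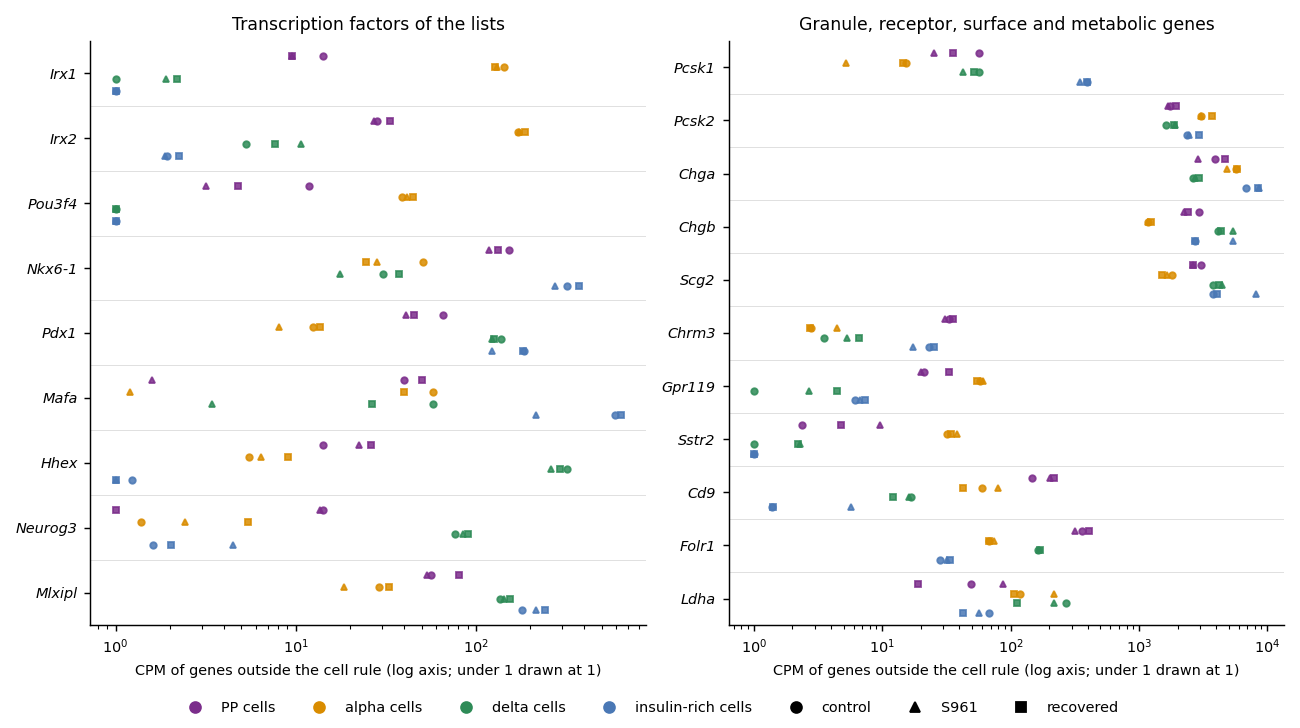
Levels in CPM on a log axis (values under 1 drawn at 1) of transcription factor genes and of granule, receptor, surface and metabolic genes, with the cell class as colour and the library as marker. Irx1 lies at 9.54 to 14.1 CPM in PP cells and 127 to 144 in alpha cells, whereas Nkx6-1 lies at 118 to 153 CPM in PP cells and 24.6 to 51.2 in alpha cells.

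Of the PP-fold peptides and their receptors, 3 of 9 were measured (median 0.37). Pyy was higher, as given above. The neuropeptide gene Npy was near the floor (4.71, 1.60 and 0 CPM in PP cells, −1.65, edgeR adjusted p = 0.141), and Dpp4, the protease that trims these peptides, was at 42.4, 39.9 and 50.1 CPM (0.37, edgeR adjusted p = 0.28). The receptor genes Npy1r, Npy2r, Npy4r, Npy5r and Npy6r had no UMI in PP cells, out of 2097118 UMIs of genes outside the rule. Of 16 genes named as gamma markers in other islet studies, 10 were measured, 5 higher (Pyy, Tspan8, Spock1, Id2 and Meis2), 1 lower (Etv1 at −0.52) and 4 neither (median 0.39). Id2, an inhibitor of helix-loop-helix factors, was at 160, 195 and 350 CPM against 136, 105 and 183 CPM (0.88, edgeR adjusted p = 2.37e-06), and Meis2 at 297, 306 and 372 against 219, 227 and 225 CPM (0.63, edgeR adjusted p = 1.98e-05). Aqp3, Slc6a4, Ptgfr, Abcc9 and Tph1 had no UMI in PP cells.

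In the granule machinery, all 21 processing and granule genes were measured, 5 higher, 7 lower and 9 neither (median −0.17). The prohormone convertases went opposite ways. Pcsk1 was at 56.6, 25.5 and 35.8 CPM against 15.2, 5.24 and 14.6 in alpha cells (1.95, edgeR adjusted p = 9.67e-06), and Pcsk2 at 1739, 1678 and 1943 against 3050, 3047 and 3705 CPM (−0.76, edgeR adjusted p = 2.17e-09). Pcsk1 is also a beta-cell gene (350 to 394 CPM in insulin-rich cells). The granins split likewise: Chgb (1.16) and Scg2 (0.84) were higher and Chga (−0.44) was lower. Of 17 measured exocytosis genes (of 18), Cplx2 was higher (0.42), Syt5 lower (−0.89) and 15 neither (median 0.02), and of 21 measured channel genes (of 25), 5 were higher, 2 lower and 14 neither (median −0.07).

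Receptors were more often lower. Of 35 hormone and nutrient receptor genes 21 were measured, 3 higher (Chrm3, Igf1r and Prlr, the last 2 not with the Ppy minimum at 5%), 8 lower and 10 neither (median −0.09). Gpr119, a receptor for fatty acid amides, was at 21.2, 19.9 and 33.4 CPM against 58.1, 61.3 and 54.6 CPM (−1.24, edgeR adjusted p = 0.000178). Sstr2, through which somatostatin restrains glucagon release, was at 2.36, 9.57 and 4.77 CPM against 31.8, 38.3 and 34.6 CPM (−2.22, edgeR adjusted p = 1.09e-05). The adrenergic receptor Adrb1 (−2.26), the vasopressin receptor Avpr1b (−1.54) and the fatty acid receptor Ffar1 (−0.73) were lower as well. DESeq2 called 1 of the list higher and 2 lower. The insulin receptor Insr was at 21.2, 23.1 and 23.8 CPM in PP cells and 26.6 to 35.5 CPM in alpha cells (−0.27, edgeR adjusted p = 0.523). Of 18 genes of insulin receptor and FoxO signalling 13 were measured, with Igf1r (0.56) and Trib3 (1.98) higher, Grb10 lower and 10 neither (median −0.12).

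Surface and adhesion genes leaned to the higher side: 8 of 17 measured (of 19) were higher, 2 lower and 7 neither (median 0.55). Folr1, the folate receptor, was at 358, 320 and 408 CPM in PP cells, 67.3 to 73.8 CPM in alpha cells and 165 to 170 CPM in delta cells (2.43 over alpha, SE 0.11, edgeR adjusted p = 9.37e-16; 1.10 over delta, edgeR adjusted p = 2.33e-15). Cd9, a tetraspanin (chr6:125460266-125494791), was at 146, 203 and 217 CPM against 59.5, 80.2 and 42.7 CPM in alpha cells (1.68, SE 0.14, edgeR adjusted p = 1.43e-09) and 12.1 to 16.7 CPM in delta cells. PP cells were the highest of the 4 classes for both genes, without overlap. Cd24a (2.38), Itga6 (1.79) and Epcam (0.74) were also above alpha cells, Cd24a not without cells that held a second hormone (0.18, edgeR adjusted p = 0.876), while delta cells held more Cd24a (506 to 582 CPM) and Epcam (1241 to 1554 CPM).

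In the metabolic lists more genes were lower than higher in PP cells. Glucose metabolism had 1 of 22 measured genes (of 24) higher, 7 lower and 14 neither (median −0.30), with Fbp1, an enzyme of gluconeogenesis, at 9.43, 23.1 and 16.7 CPM against 109, 195 and 110 CPM (−2.95, edgeR adjusted p = 3.88e-13) and Ldha, lactate dehydrogenase, at 49.5, 87.0 and 19.1 against 119, 220 and 106 CPM (−1.34, edgeR adjusted p = 6.56e-08). All 19 sterol synthesis genes were measured, none higher, 10 lower and 9 neither (median −0.64), with Idi1 at −1.50, Fdps at −1.21 and Hmgcs1 at −1.07. DESeq2 called 3 of them lower, and 4 were lower without the S961 library. Monoamine and GABA metabolism had Ddc (−0.58) and Maob (−3.19) lower among 8 measured of 14 (median −0.26). In the list of other peptide hormones, 13 of 27 were measured, with Iapp higher, 6 lower and 6 neither (median −1.12). Edn3, endothelin 3, was at 25.9, 51.9 and 28.6 CPM against 115, 129 and 137 in alpha and 1.53 to 2.20 in delta cells.
Of the 22 genes of the unfolded protein response, 11 were higher, none lower and 11 neither (median 0.33). The chaperone Dnajb9 was at 452, 385 and 458 CPM against 250, 178 and 223 (1.12, edgeR adjusted p = 5.33e-10), and Ddit3 (0.91) and Hspa5 (0.32) were also higher. With total counts in place of TMM, 8 were higher and 1 lower, and DESeq2 called 5 higher. Of the 18 immediate early and heat shock genes, 11 were higher, none lower and 7 neither (median 0.80). They comprised early genes such as Fos (716, 982 and 963 CPM against 441, 409 and 460; 1.14), Jun (1.45), Egr1 (1.00) and Atf3 (1.52) and the metallothioneins Mt1 (0.82) and Mt2 (0.78), whereas Hspa1a, Hspa1b, Hsph1, Hspa8, Dnajb1 and Hsp90aa1 were neither. All classes of a library went through the same culture and dissociation, and the part of these steps in the levels of the early genes was not tested.
Of 18 measured senescence and cell cycle genes (of 21), 4 were higher and 5 lower (median −0.24). Gdf15, a stress-induced cytokine, was at 113, 116 and 95.4 CPM against 16.6, 16.5 and 20.0 CPM in alpha cells (2.77, SE 0.19, edgeR adjusted p = 3.79e-12), and delta cells held 189 to 253 CPM. Bambi (1.33) was higher, and Trp53 (−0.90), Bax (−0.73), Phlda3, Ccng1 and Ccnd2 (−0.32) were lower. Cdkn1a, which encodes p21, was at 113, 120 and 95.4 CPM against 74.7, 112 and 64.6 CPM (0.41, edgeR adjusted p = 0.0315), and 0.29 (edgeR adjusted p = 0.193) without the cells that held other-lineage markers. Igfbp3 had 0, 119 and 1 UMIs in PP cells (3.13, edgeR adjusted p = 4.8e-09), and −1.60 (edgeR adjusted p = 0.158) without those cells. Both calls thus ended when 8 S961 PP cells, and the alpha cells taken out by the same limit, were left out. Of 16 measured interferon and antigen presentation genes (of 18), 5 were higher, B2m (−0.50) and Cd74 lower and 9 neither (median 0.30). Cd74 rested on the S961 library, with 77.0 CPM in its alpha cells against 0 and 0.910 in the others.

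How frequent PP cells were in each library was asked next. They made up 3.04% (exact 95% interval 2.55 to 3.605) of the cells within the limits in control, 4.59% (3.92 to 5.34) in S961 and 2.23% (1.77 to 2.78) in recovered. The intervals do not overlap between S961 and the others and cover counting error only, and with 1 library per group the spread between mice is unknown. The ordering depended on what the cells were counted among. Of PP plus alpha cells, PP cells were 34.4%, 30.7% and 23.0%, and of PP, alpha and delta cells 18.9%, 18.9% and 15.3%. Control and S961 did not differ there beyond counting error. Among PP plus alpha cells recovered lay below control (exact 95% intervals 18.6 to 27.8% and 29.6 to 39.4%). Among PP, alpha and delta cells these 95% intervals overlapped (12.3 to 18.6% and 16.0 to 22.0%). The insulin-rich cells that fill most of the denominator numbered 2677, 1507 and 1969 in the same order.

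Gene levels in PP cells were then compared between libraries. There is no test here: each ratio compares 1 library with another, its 95% interval is an exact binomial one for counting error, and a gene is counted as higher or lower past 2-fold. Genes needed 30 UMIs over both libraries. In S961 against control, 227 of 7213 genes were higher (3.15%) and 82 lower (1.14%). In recovered against control, 71 of 4733 were higher (1.5%) and 61 lower (1.29%), and in recovered against S961, 85 of 7223 were higher (1.18%) and 225 lower (3.12%). Without the 8 S961 cells that held other-lineage markers, the counts were 198 and 70 in S961 against control and 75 and 169 in recovered against S961. The pairs share libraries, so the 3 comparisons are not independent.

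Summed over PP cells, Ppy and Pyy differed little between libraries. The cells had been chosen by Ppy, so its level was partly set by the rule. On a scale per 1000000 of all UMIs, the log2 ratio of Ppy was 0.02 in S961 over control, 0.07 in recovered over control and 0.05 in recovered over S961, and that of Pyy −0.01, 0.13 and 0.14. In alpha cells the Pyy ratios were 0.44, 0.09 and −0.35. Iapp was lower in the S961 library, with 23608, 11850 and 21926 CPM in control, S961 and recovered PP cells. That is a ratio of −0.99 (−1.03 to −0.96) in S961 over control and 0.89 (0.85 to 0.93) in recovered over S961, and alpha cells gave −1.28 and 0.74. Insulin RNA in PP cells followed the same order, as given above, and its part in the Iapp values was not tested. The nearness of recovered to control in Iapp did not hold within cells of like Ppy share. With 20% Ppy or more, the levels were 11550, 3521 and 5610 CPM in control, S961 and recovered, and with 5 to 20% Ppy 24844, 17347 and 42441 CPM.

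With all PP cells, the highest ratios of S961 over control were those of acinar genes. The regenerating protein gene Reg1 had 1020 UMIs in S961 PP cells and none in control, at least 115-fold higher with a floor of 3 UMIs in the control library. Pnliprp1 (594 against 7.07 CPM), Ctrl (316 against 2.36), Clps (305 against 2.36) and Sycn (353 against 7.07) followed, and Fabp4, a lipid carrier of fat and endothelial cells, had 191 UMIs against 0. Without the 8 cells that held other-lineage markers, Reg1 had 25 UMIs in S961, and the log2 ratios of Pnliprp1, Ctrl, Clps and Sycn were 0.56, 1.56, 1.15 and 0.56.
In that setting other genes led. Mest, an imprinted gene, had 30 UMIs against 1 (26.1 against 2.36 CPM, 3.47, interval 0.88 to 8.82), with a ratio of −0.78 in alpha cells. Hbegf, a ligand of the EGF receptor, was at 28.7 against 4.71 CPM (2.61, 0.64 to 5.71; alpha −0.46), complement factor Cfi at 51.3 against 14.1 (1.86, 0.65 to 3.36; alpha 1.21) and the glucuronosyltransferase Ugt2b34 at 480 against 262 (0.88, 0.58 to 1.18; alpha −0.05). Ankra2 (1.81) and Rbm43 (1.42) were the others. Most intervals are wide, since the control side held 1 to 13 UMIs for all of them but Ugt2b34.

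The genes with low ratios of S961 over control in PP cells included Prlr, Pdyn and G6pc2. Prlr, the prolactin receptor (chr15:10177238-10349180), was at 12.8 CPM in S961, 73.0 in control and 28.6 in recovered (−2.52, −3.49 to −1.60 for S961 over control), and alpha cells gave the same ratio of −2.52. Pdyn (−2.42), G6pc2 (−2.23), Vstm2l (−2.37) and Crybb3 (−2.07) were also named, with alpha ratios of −3.72, −1.24, −0.26 and 0.20. G6pc2, Prlr, Pdyn and Crybb3 are abundant in insulin-rich cells. In PP cells G6pc2 was at 7.77%, 2.02% and 3.24% of the insulin-rich level in control, S961 and recovered, and Prlr at 23.7%, 6.0% and 7.68%, beside 9.0%, 1.09% and 5.66% for Ins2. The part of insulin-rich cells' RNA in these ratios was not tested. Of the fixed lists, 3 of 13 measured receptors were lower in S961 (Prlr, Igf1r and Gipr), 2 of 7 beta identity genes (G6pc2 and Ero1lb) and none of 22 genes of the unfolded protein response (median −0.24 against 0.0020 over all genes). Igf1r was at 82.5 CPM in control, 38.3 in S961 and 85.8 in recovered PP cells, and its ratio of S961 over control was −1.11 (−1.77 to −0.43) in PP and −1.25 in alpha cells.

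In recovered PP cells, Id3 and Id2 were the genes whose intervals lay farthest above 0 against control. Id3, which like Id2 binds and blocks helix-loop-helix factors (chr4:136143497-136145755), was at 259 CPM in control, 271 in S961 and 627 in recovered PP cells. The ratio of recovered over control was 1.27 (0.95 to 1.61) and of recovered over S961 1.21 (0.97 to 1.45), and alpha cells gave 0.33 and 0.60. Id2 was at 160, 195 and 350 CPM, a ratio of recovered over control of 1.13 (0.70 to 1.57), against 0.43 in alpha cells, and Id1 was at 73.9 CPM in recovered against 27.9 in S961 (1.40, 0.66 to 2.14; alpha 0.22). The control level of Id1 was 37.7 CPM, so recovered PP cells held the most of each Id gene, with no replicate to set this against. The interferon-induced membrane protein gene Ifitm2 was at 198 against 87.2 CPM in control (1.18, 0.61 to 1.78; alpha −0.29), and Zfp398 (1.35), Gphn (1.46) and Bcor (1.49) were also higher. Lower in recovered than in control were Sftpd (9.54 against 84.8 CPM, −3.15), the small heat shock gene Hspb1 (35.8 against 144, −2.01), heme oxygenase Hmox1 (−2.04), neurofilament Nefm (57.2 against 167, −1.55) and fibrinogen Fgb (114 against 264, −1.21; alpha 0.43).

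Against S961, recovered PP cells held more Bace2, a membrane protease (chr16:97356742-97442936). Control PP cells held 146 CPM, S961 51.1 and recovered 148, so S961 was the low one, and the ratio of recovered over S961 was 1.53 (1.01 to 2.06), or 1.63 without the cells that held other-lineage markers. In alpha cells the ratio was −0.83 (−1.52 to −0.18). Egr4, an early growth response gene, was at 50.1 against 10.4 CPM (2.27, 1.21 to 3.39), and Bbs2 (1.71) and Sfxn2 (1.53) were higher. The lowest ratios of all PP cells were again acinar genes and Fabp4 (Pnliprp1 at −5.96, and −0.13 without the cells that held other-lineage markers). Without those cells Ldha led, at 19.1 against 87.0 CPM (−2.19, −3.44 to −1.16 with all cells; alpha −1.05). Also lower were Ang, which encodes angiogenin (28.6 against 95.7 CPM, −1.74, −2.73 to −0.88; alpha 0.04), Gabpb2 (−1.88), Nefm (−1.60), Fgb (−1.39) and Rgs4 (−1.24). Of the fixed lists, Igf1r (1.16), Ero1lb (1.26) and Trpm4 (1.02) were higher in recovered PP cells. Ldha, Myt1, Stx1a, Igfbp3, Hspa1a and Stat2 were lower. These list ratios are over all PP cells. For Igfbp3 the difference from alpha cells turned its sign (−1.60) without cells that held other-lineage markers. The differences between PP and alpha ratios were not tested.

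**Figure D5:**
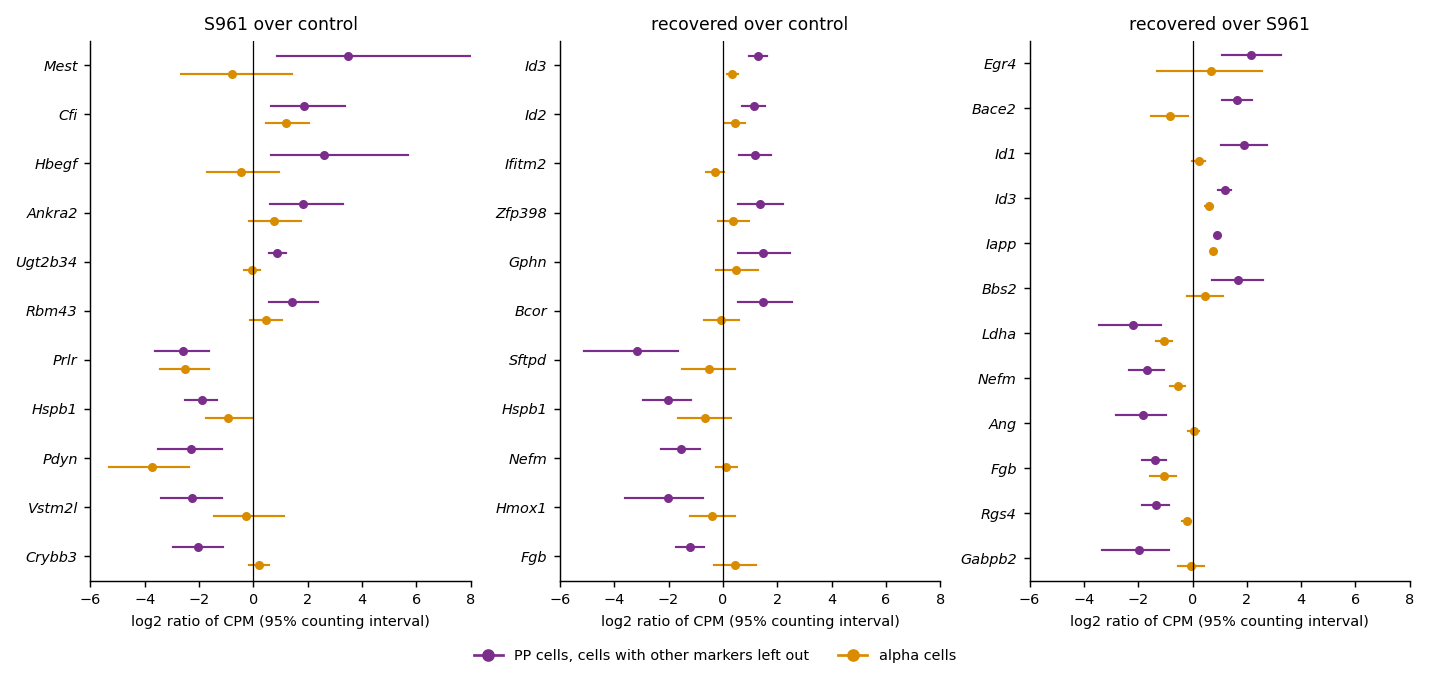
Log2 ratios of CPM between libraries, with 95% counting intervals, for the genes chosen in PP cells after leaving out cells with other-lineage markers (first point) and the same ratio in alpha cells (second point). Id3 in recovered over control lies at 1.27 in PP and 0.33 in alpha cells, and Bace2 in recovered over S961 lies on opposite sides of 0.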

How the data were processed

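Single-cell 3′ RNA of 3 mouse islet libraries was analysed. The authors deposited 1 table of counts (UMIs) of 31053 genes in 24590 barcodes, which are raw, unnormalized values: all were whole numbers, and no barcode held under 500 UMIs. Cell Ranger and the build mm10 are named without a version, per the submitters' processing notes. Barcodes were assigned to libraries by the suffix in the labels. Classes were cut on the hormone and quality limits given in the report, and insulin-rich cells had at least 20% insulin UMIs and under 1% of Ppy, Gcg and Sst each. UMIs were summed per class and library (6 sums) and tested with edgeR 4.0.16 (TMM, library block, quasi-likelihood test) on R 4.3.3, with Benjamini-Hochberg adjustment over all genes with at least 30 UMIs and a threshold of 0.05. DESeq2 1.42.0 was an alternative. Python 3.11.15, scanpy 1.11.5 (Scrublet, expected rate 0.06), scipy 1.17.1 and numpy 2.4.6 were used. The edgeR step was tested on simulated data. UMI counts from 3′ ends do not scale with gene length.

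Named genes were the 15 highest and 12 lowest fold changes over alpha cells among called genes with the same sign in 3 libraries and at least 20 CPM. Between libraries they were the 6 ratios each way by the bound nearest to 0. In both, non-endocrine markers and mitochondrial, ribosomal protein and unnamed genes were passed over, and members of 20 gene lists are named as well. A few genes that these rules pick are not reported here, in text or figures, and stay in the counts. The members and lists were chosen with earlier results of these data known. The comparisons with delta and insulin-rich cells and the setting without cells holding other markers were added after seeing the data. Genes were located with GENCODE M21, which held 487 of 490 symbols looked up once. Intervals and floors cover counting error only.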

Additional observations from a re-analysis of the deposited data

Results flagged for a closer look

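The ratio of Bace2 in recovered over S961 was 1.53 on the log2 scale in PP cells and −0.83 in alpha cells, with intervals on opposite sides of 0. It is given here because the same contrast went opposite ways in these classes. The levels were 148 against 51.1 CPM in PP and 22.7 against 40.3 CPM in alpha cells, and there was 1 library per group, so the difference was not tested.

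Outside the quality limits, 44 barcodes were led by Ppy with over 20% mitochondrial UMIs, namely 15 control, 11 S961 and 18 recovered ones. Their medians were 6.52% Ppy and 27.4% mitochondrial UMIs. They entered no comparison.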

How the results depend on the processing

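The counts of genes that differed between PP and alpha cells moved with the processing, while their balance held except under total counts. DESeq2 gave 174 higher and 195 lower genes, cells thinned to 2000 UMIs 218 and 261, and total counts without TMM 1299 lower. Leaving out 1 library gave 408 to 686 higher and 460 to 669 lower, with the lowest counts without S961. Every other alternative stayed within 1.5 times of 808 and 833. The groups could not be paired with each other, because they have 1 library each and share only the number 1. PP and alpha cells were paired by library through the block. Without that block, 618 were higher and 630 lower. For Pyy and the 15 and 12 genes named by fold change, 473 values were computed under the alternatives. Of these, 469 kept their side of the threshold and 4 lost it (Mfap2 under DESeq2, and Pnliprp2, Pla2g1b and Kctd8 without the block). Settings in which a gene was not tested, as with too few UMIs, gave no value and are in neither count. Of the 134 list genes called, 122 kept the call with the Ppy minimum at 5%, 115 without cells holding a second hormone, 129 without cells holding other-lineage markers, 69 under DESeq2, 64 in thinned cells and 89 without S961. Igfbp3 turned its sign with the Ppy minimum at 5% (−1.54) and without cells holding other-lineage markers (−1.60).

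Between libraries, counts in the order higher and lower depended on the threshold. With at least 100 UMIs they were 32 and 5 in S961 over control, 3 and 1 in recovered over control and 3 and 37 in recovered over S961. Thinned cells gave 52 and 35, 21 and 35, and 12 and 76. A 1.5-fold ratio with its interval apart from 1 gave 191 lower in S961 over control, 121 higher and 114 lower in recovered over control, and 188 higher in recovered over S961. Of the named ratios, 239 stayed within their interval, 16 moved and none reversed. Without a mitochondrial limit the PP share in control was 2.30% in place of 3.04%. Among PP plus alpha cells the shares were 34.4%, 30.7% and 23.0%, and among PP, alpha and delta cells 18.9%, 18.9% and 15.3%. Depth limits rare genes most in control PP cells, whose 130 cells held 624411 UMIs in all.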
